A study of Mus musculus with 10 samples.

Results

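The genes described here are 10 genes used to recognise astrocytes or coding for their gap junctions: Aqp4, Gfap, Aldh1l1, Slc1a2, Slc1a3, Gja1, Gjb6, Aldoc, Agt and Fgfr3. They were taken by symbol from a table of 49315 genes, and all 10 were found, each under 1 Ensembl identifier. RNA was taken from male C57 BL/6 mice, from the dissected layer of granule cells in the dorsal dentate gyrus of the hippocampus. All 10 mice belong to a self-administration experiment, 5 with cocaine and 5 with saline, with 1 poly(A) library each. The labels give no age of the mice and no dose or duration of drug intake. The layer was dissected and not sorted, so its RNA can come from neurons, astrocytes and every other cell type in or beside it.

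Astrocytes are the glial cells that surround synapses and wrap blood vessels with their endfeet. They clear glutamate from the synapse, buffer potassium, move water through the endfoot membrane and supply neurons with fuel. Gap junctions built from connexins join them into networks through which ions and metabolites pass. In the dentate gyrus the stem cells of adult neurogenesis are also astrocyte-like and share several of these genes.

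Total counts per library ran from 34991548 to 46481533, and 17080 genes passed the low-count filter and were tested, all 10 astrocyte genes among them. Each of these genes had between 1273 and 92469 counts in every library, so counting error was small beside the spread between mice. Levels are given in CPM, counts relative to each library's total after TMM adjustment. A level written with ± is the mean and SD over the n = 5 libraries of a group, unless another number of libraries is given. Other cell types were present too. Summed over the list, granule cell markers ranged from 1402 to 2710 CPM with cocaine and from 1982 to 2672 CPM with saline, and oligodendrocyte markers from 4202 to 11103 and from 4106 to 5959 CPM. Choroid plexus markers ranged from 65.9 to 3635 CPM and from 99.8 to 1411 CPM, and were highest in cocaine replicates 5 and 1 and saline replicate 3. In the edgeR quasi-likelihood fit of cocaine against saline, 0 genes were higher and 0 lower at a Benjamini-Hochberg adjusted p under 0.05, a share of 0% of all genes tested. At an unadjusted p under 0.05, 1521 genes, or 8.91%, passed in either direction. With DESeq2, 16 genes (0.054%) were higher and 1 (0.00338%) was lower. With limma voom and sample weights, 91 (0.533%) were higher and 4 (0.0234%) lower.

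Sequences upstream of 5 of the genes are shown first, for Slc1a2, which had the smallest p of the 10 between the groups, and for Aldh1l1 with Aldoc and Agt with Fgfr3, the 2 pairs with the highest Spearman's rho from library to library. They are the 250 bases before a RefSeq transcription start (GRCm38.p6, the assembly of mm10), 5′ to 3′ on the strand of the gene, with motif matches in capitals. The windows are chr2:102706188-102706437 on the plus strand for Slc1a2, chr6:90550543-90550792 on the plus strand for Aldh1l1, and chr11:78322823-78323072 on the plus strand for Aldoc. For Agt the window is chr8:124569707-124569956 on the minus strand, and for Fgfr3 chr5:33721474-33721723 on the plus strand.
Slc1a2: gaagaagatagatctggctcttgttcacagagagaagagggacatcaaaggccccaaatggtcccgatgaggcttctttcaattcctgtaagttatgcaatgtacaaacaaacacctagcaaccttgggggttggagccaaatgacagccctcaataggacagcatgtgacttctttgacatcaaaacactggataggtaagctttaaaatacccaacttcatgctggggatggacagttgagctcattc
Aldh1l1: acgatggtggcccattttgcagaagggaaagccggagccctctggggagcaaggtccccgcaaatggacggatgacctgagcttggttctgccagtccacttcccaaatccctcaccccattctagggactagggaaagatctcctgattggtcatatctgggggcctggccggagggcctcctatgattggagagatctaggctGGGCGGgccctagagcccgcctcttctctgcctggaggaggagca
Aldoc: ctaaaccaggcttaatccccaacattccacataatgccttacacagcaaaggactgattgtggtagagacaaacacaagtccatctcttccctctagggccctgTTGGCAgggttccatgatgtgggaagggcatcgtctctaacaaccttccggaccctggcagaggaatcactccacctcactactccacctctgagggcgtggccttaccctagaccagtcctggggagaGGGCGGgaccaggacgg
Agt: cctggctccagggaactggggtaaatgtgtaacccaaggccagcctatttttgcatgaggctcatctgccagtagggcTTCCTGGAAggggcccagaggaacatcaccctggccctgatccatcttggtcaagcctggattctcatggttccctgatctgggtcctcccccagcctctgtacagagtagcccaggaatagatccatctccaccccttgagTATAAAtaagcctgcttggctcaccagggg
Fgfr3: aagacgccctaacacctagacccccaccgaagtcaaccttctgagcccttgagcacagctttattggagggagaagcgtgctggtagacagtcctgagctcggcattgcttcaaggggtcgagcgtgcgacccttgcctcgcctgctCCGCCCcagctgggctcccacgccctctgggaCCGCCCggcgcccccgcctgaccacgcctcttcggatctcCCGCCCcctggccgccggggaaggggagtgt
Both strands were searched for the TATA box with the letters TATAAA, the GC box with the letters GGGCGG and the SOX motif with the letters ACAATG. Also searched were the STAT motif with the letters TTCNNNGAA, the CRE motif with the letters TGACGTCA, the NFI palindrome and an NFI half-site motif with the letters TTGGCA, which can overlap the palindrome. The Slc1a2 window held none of them, and its GC content of 44.8% lay below the 52.4% median of all windows. Its start lies 47779 bases from the start of the GENCODE M21 gene, and that of Aldh1l1 64366 bases, so other starts of these genes are not in the windows. GC boxes were found once in Aldh1l1, once in Aldoc and 3 times in Fgfr3, against 32.7% of 32851 RefSeq windows of the same length with at least 1. Aldoc also held 1 match to TTGGCA, found in 12.3% of windows. Agt held a TATA box from 30 to 25 bases before its start and 1 STAT match, found in 12.4% and 7.02% of windows. A GC box was thus found in both Aldh1l1 and Aldoc, and Agt and Fgfr3 had no searched motif in common. Of the windows not shown, those of Gfap, Gja1 and Gjb6 held none of the motifs. That of Slc1a3 held a GC box, a STAT match and a match to TATAAA on the opposite strand, from 161 to 156 bases before its start. Whether shared motifs go with correlated levels was not tested. The table held windows for 9 of the 10 genes.

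Per kilobase of exon, the astrocyte genes spanned a wide range. The exons of all annotated transcripts of a gene were merged for its length, so the order of levels depends on that choice. In FPKM, CPM divided by the summed exon length of the gene, Aldoc stood highest at 219 ± 50.8 (SD, all 10 libraries). It was followed by Slc1a2 at 138 ± 17.3, Gfap at 89.4 ± 12.5 and Slc1a3 at 50.8 ± 6.47. Each of these stood above the next in all 10 libraries, apart from Slc1a3, which was above Agt in 8 of 10. Agt averaged 34.5 ± 13.7 FPKM, Aqp4 22.6 ± 3.75, Gjb6 19.9 ± 4.75 and Gja1 19.5 ± 2.21. Fgfr3 at 12.7 ± 2.19 and Aldh1l1 at 12.3 ± 2.35 were the lowest. Some neighbours in the lower part of this order changed places between libraries. Agt was above Aqp4 in 8 of 10 libraries, Aqp4 above Gjb6 in 7, Gjb6 above Gja1 in 5 and Fgfr3 above Aldh1l1 in 6, while Gja1 stood above Fgfr3 in all 10.

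**Figure D1:**
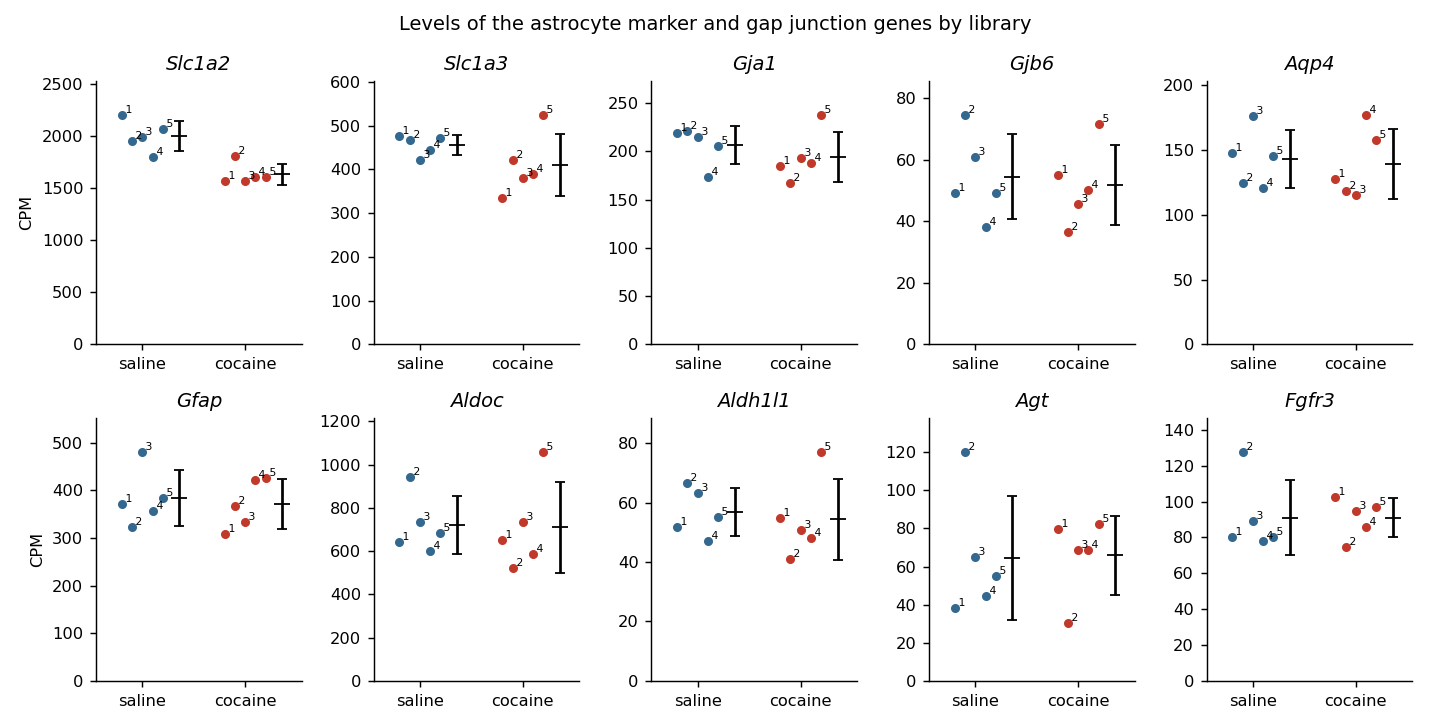
CPM of each astrocyte gene (vertical axes from 0) in the 5 saline libraries (blue) and 5 cocaine libraries (red), numbered by replicate, with the mean and SD in black. For Slc1a2, cocaine replicates 1, 3, 4 and 5 lie below every saline library, while for the other genes the groups overlap widely or through cocaine replicate 5.

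Slc1a2 stood lower in 4 of 5 cocaine libraries than in any saline library, and no other astrocyte gene reached an unadjusted p under 0.05 between the groups. Of the 10 genes, 9 had a log2 fold change below 0, where 46.4% of all genes tested did. Their median was −0.05, against 0.02 over all genes tested. At an unadjusted p under 0.05, 1 of the 10, Slc1a2, was lower and 0 were higher, beside 3.33% of all genes lower and 5.58% higher. None of the 10 had groups without overlap, as 1.38% of all genes did. The number of genes above 0, which was 1, depended on single libraries: it was 6 without cocaine replicate 2 and 0 without cocaine replicate 5.

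Slc1a2 codes for GLT-1, the main glutamate transporter of astrocytes, which is also made by some hippocampal neurons at low levels. It lies on chromosome 2 from 102658659 to 102790784 (mm10, GENCODE M21). Its levels were 1569, 1808, 1572, 1607 and 1605 CPM in cocaine replicates 1 to 5. With saline they were 2199, 1948, 1988, 1799 and 2068 CPM in replicates 1 to 5. Thus 4 cocaine libraries lay within a narrow band below every saline library, and the only overlap was between cocaine replicate 2 and saline replicate 4.

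The mean of Slc1a2 was 1632 ± 99.97 CPM under cocaine and 2000.1 ± 148 CPM under saline. Cocaine minus saline, the log2 fold change was −0.29 (SE 0.07, 95% interval −0.45 to −0.14). Its unadjusted p of 0.00112 was the 24th smallest of 17080, but its adjusted p in edgeR was 0.504. DESeq2 gave an adjusted p of 0.0951, and limma voom with sample weights 0.0474, which made Slc1a2 1 of the 4 genes that voom called lower, 0.0234% of those tested. Leaving out each library in turn kept the log2 fold change between −0.33 and −0.26, with unadjusted p from 0.000511 to 0.00464 and edgeR adjusted p from 0.0842 to 0.892.

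Measures of other RNA were used in 3 further fits of Slc1a2. Nuclear RNAs (Neat1, Malat1 and Meg3) took from 0.103% to 0.255% of counts with cocaine and from 0.0713% to 0.120% with saline. This share was higher in cocaine replicates 1 to 4 than in any saline library. With it as a covariate the log2 fold change of Slc1a2 was −0.20 with an unadjusted p of 0.0482, beside 2.87% of all genes lower at that threshold. With the mean level of the oligodendrocyte markers as a covariate it was −0.25 with an unadjusted p of 0.0126, beside 3.11% of all genes lower. Without the 3 libraries richest in choroid plexus markers it was −0.27 with an unadjusted p of 0.00727, beside 3.51% of all genes lower. These 3 fits were chosen after seeing the data. The summed level of the 10 astrocyte genes was 3470 to 4335 CPM with cocaine and 3703 to 4417 CPM with saline. Cocaine replicates 1 to 4 lay below every saline library. Slc1a2 is the largest part of this sum, which is thus not separate from the Slc1a2 result. The sum of 54 other astrocyte genes was 11768.5 to 18041.3 CPM with cocaine and 12948.1 to 16765.1 CPM with saline. In that sum only cocaine replicate 2 lay below every saline library. In dissected tissue, fewer astrocytes and less of a transcript per astrocyte cannot be told apart.

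Slc1a3, which codes for GLAST, the other astrocyte glutamate transporter, stood at 410 ± 70.6 CPM under cocaine and 457 ± 23.2 CPM under saline. It lies on chromosome 15 from 8634124 to 8710764. With cocaine its levels were 335, 421, 381, 389 and 524 CPM in replicates 1 to 5, and with saline 477, 468, 421, 445 and 472 CPM. Cocaine replicate 5 was the highest of all 10 libraries, while the other 4 cocaine libraries lay below every saline library, cocaine replicate 2 by a small margin. Its log2 fold change in edgeR was −0.15 (SE 0.10, unadjusted p 0.158). In voom with sample weights Slc1a3 was at −0.24 with an unadjusted p of 0.00390, so that 2 of the 10 genes were lower at that threshold, beside 6.65% of all genes. Without cocaine replicate 5 it was −0.26 with an unadjusted p of 0.00301 and an adjusted p of 0.115, in a fit where 4.96% of all genes were lower at an unadjusted p under 0.05. Without cocaine replicate 1 it was −0.09 with an unadjusted p of 0.385. With that nuclear RNA share added as a covariate, the direction turned, to 0.10 with an unadjusted p of 0.302. The share in cocaine replicates 1 to 4 was above that of every saline library, so this fit cannot well separate it from the group.

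The ratio of Slc1a2 to Slc1a3 within a library does not depend on the scaling of the library. Its log2 value averaged 2.01 ± 0.23 under cocaine and 2.13 ± 0.09 under saline, a difference of −0.12 (SE 0.11, exact two-sided permutation test, p = 0.349). Adjusted over the 6 gene pairs compared in this way, p was 0.698. The smallest p that 5 against 5 libraries allow is 0.00794. Cocaine replicate 5 had the lowest ratio at 1.62, and without it the difference was −0.03.

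Of 18 genes of glutamate uptake and glutamine metabolism, 17 were tested, 5 with a log2 fold change above 0 and 12 below. Of all genes tested, 46.4% were below 0. The median of the list was −0.09. Slc1a2 was its only gene at an unadjusted p under 0.05, beside 3.33% of all genes lower at that threshold. Outside the astrocyte genes, the smallest p belonged to Slc1a4, a neutral amino acid transporter, at −0.14 (SE 0.07, unadjusted p of 0.0573), and Slc38a3, a glutamine transporter of astrocytes, at 0.21 (SE 0.12, unadjusted p of 0.111). Glul, the glutamine synthetase that turns the captured glutamate into glutamine, stood at 1534 ± 319 CPM under cocaine and 1577 ± 218 CPM under saline, a log2 fold change of −0.04. It was chosen after its values were seen.

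**Figure D2:**
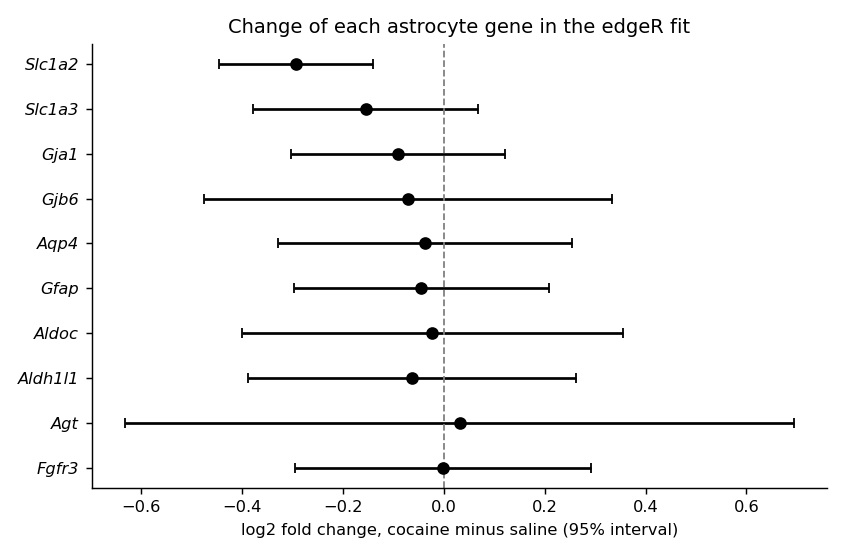
Log2 fold change of each astrocyte gene, cocaine minus saline (horizontal axis), in the edgeR fit, as points with 95% intervals. The interval of Slc1a2, from −0.45 to −0.14, is the only 1 of the 10 that leaves out 0.

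The gap junction genes Gja1 and Gjb6 code for connexin 43 and connexin 30, the main connexins of astrocytes. Gja1, on chromosome 10 from 56377330 to 56402513, had 185, 168, 193, 188 and 237 CPM in cocaine replicates 1 to 5. With saline it had 219, 221, 215, 174 and 205 CPM. The highest library and the lowest were both in the cocaine group, so the groups overlapped over their whole range. For Gja1 the log2 fold change was −0.09 (SE 0.10, 95% interval −0.30 to 0.12).

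Gjb6, on chromosome 14 from 57123303 to 57133611, had 55.1, 36.7, 45.7, 50.2 and 71.6 CPM in cocaine replicates 1 to 5. With saline it had 49.3, 74.5, 61.1, 38.2 and 49.2 CPM. Its spread was wider than that of Gja1, with a coefficient of variation of 25.03% with cocaine and 25.3% with saline, against 13.4% and 9.46% for Gja1. Its log2 fold change was −0.07 (SE 0.19). Per exon length the Gja1 to Gjb6 ratio lay between 0.775 and 1.19 over the libraries. These lengths merge the exons of all annotated transcripts, 10257 bases for Gja1 and 2674 for Gjb6. The ratio per length depends on that choice, and by counts Gja1 stood 2.97 to 4.57 times as high as Gjb6. On the log2 scale the ratio of their counts was 1.93 ± 0.20 under cocaine and 1.96 ± 0.26 under saline, a difference of −0.03 (SE 0.15, exact permutation p of 0.865).

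Connexins and pannexins of other cells were described from the whole family of 23 genes. Of these, 14 were tested, 4 with a log2 fold change above 0 and 10 below, with a median of −0.08. Unadjusted p fell under 0.05 for 3, of which 2 were higher, beside 5.58% of all genes higher and 3.33% lower. Gjc3, which codes for a connexin of oligodendrocytes, had the smallest p. It stood at 56.6 ± 15.6 CPM under cocaine and 38.4 ± 4.59 CPM under saline, a log2 fold change of 0.56 (SE 0.17). Gjb1, another oligodendrocyte connexin, was at 0.46 (SE 0.23) with an unadjusted p of 0.0658. All 15 oligodendrocyte markers were above 0 with an unadjusted p under 0.05 and a median of 0.65, and their part in the values of Gjc3 and Gjb1 was not tested. The lower one, Gjd3, was scarce at 0.348 and 0.697 CPM. Gjb2, the connexin 26 gene of meninges and some astrocytes, was at −0.01 (SE 0.28). Gjb1 and Gjb2 were chosen after their values were seen.

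Aqp4 codes for the water channel of astrocyte endfeet. It lies on chromosome 18 from 15389496 to 15410982. Levels were 127, 119, 115, 177 and 158 CPM in cocaine replicates 1 to 5 and 148, 124, 176, 121 and 145 CPM in saline replicates 1 to 5. Cocaine replicate 4 and saline replicate 3 stood at the top with nearly the same level. edgeR put the log2 fold change at −0.04 (SE 0.13, 95% interval −0.33 to 0.25). The ratio of Aqp4 to Kcnj10, which codes for the Kir4.1 potassium channel found beside it in the endfoot, had a log2 mean of −0.64 ± 0.37 under cocaine and −0.79 ± 0.19 under saline. The difference was 0.14 (SE 0.18, exact permutation p of 0.492).

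Of 15 perivascular endfoot genes, 8 were above 0 and 7 below, with a median of 0.03. With unadjusted p under 0.05 there were 2 higher and 2 lower genes, beside 5.58% and 3.33% of all genes. Slc4a4, the sodium bicarbonate cotransporter of astrocytes, had the smallest p of them. It stood at 190 ± 11.6 CPM under cocaine and 222 ± 14.8 CPM under saline, and all 5 cocaine libraries lay below every saline library, as in 0.609% of all genes. Its log2 fold change was −0.22 (SE 0.07) with an unadjusted p of 0.00781 and an adjusted p of 0.504 in edgeR. Slc16a1, the monocarboxylate transporter MCT1 that is shared with endothelium and oligodendrocytes, was at 0.35 (SE 0.14). The other two past that threshold, named after their values were seen, were the chloride channel gene Clcn2 at 0.27 (SE 0.12) and the dystrophin gene Dmd at −0.18 (SE 0.08).

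Gfap codes for the intermediate filament protein whose level is used as a sign of reactive astrocytes. It lies on chromosome 11 from 102887336 to 102900912. It had 309, 368, 333, 422 and 425 CPM in cocaine replicates 1 to 5 and 372, 324, 480, 356 and 383 CPM in saline replicates 1 to 5. The highest library was a saline one, replicate 3, and the lowest a cocaine one, replicate 1. edgeR put the log2 fold change at −0.04 (SE 0.12, 95% interval −0.30 to 0.21). Vim, the vimentin gene, is expressed by reactive astrocytes and also by endothelium and ependyma. It was at 0.34 (SE 0.16, unadjusted p of 0.0572), with 82.0 CPM in cocaine replicate 5.

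The log2 ratio of Gfap to Vim averaged 2.71 ± 0.32 under cocaine and 3.06 ± 0.14 under saline, a difference of −0.35 (SE 0.16). Its exact permutation p was 0.0714, and 0.429 when adjusted over the 6 pairs. Cocaine replicates 1, 4 and 5 lay below every saline library. Vim was at 58.5, 62.1 and 82.0 CPM in them and at most 56.9 CPM in the other libraries. The same libraries had the highest oligodendrocyte marker level, and the part of tissue composition in the ratio was not tested. Among 6 intermediate filament genes 0 were at an unadjusted p under 0.05, and Synm, which codes for synemin, was at −0.07. Of 37 genes known from reactive astrocytes 34 were tested, 18 above 0 and 16 below, with a median of 0.02 and 0 at an unadjusted p under 0.05. Outside Vim the smallest p was that of Aspg at 0.43 (SE 0.24, unadjusted p of 0.0936).

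For the metabolic enzymes Aldoc and Aldh1l1 the SD within each group was larger than the difference between the groups. Aldoc, the brain aldolase of glycolysis, lies on chromosome 11 from 78322968 to 78327781. It had 653, 523, 734, 584 and 1058 CPM in cocaine replicates 1 to 5 and 644, 944, 735, 601 and 685 CPM in saline replicates 1 to 5. Cocaine replicate 5 and saline replicate 2 stood well above the rest. Aldoc had a log2 fold change of −0.02 (SE 0.18). Aldoa, the aldolase of most tissues, was at 2227 ± 315 CPM under cocaine and 2168 ± 65.3 CPM under saline, and the log2 ratio of Aldoc to Aldoa differed by −0.08 (SE 0.16, exact permutation test, p = 0.635). Of 18 aldolase and glycolysis genes, 10 were above 0 and 8 below, with 0 at an unadjusted p under 0.05. Eno2, the neuronal enolase, had the smallest p, and its cocaine libraries all lay below the saline ones, as in 0.609% of all genes. It stood at 836 ± 11.7 CPM under cocaine and 889.7 ± 21.2 CPM under saline. The log2 fold change was −0.09 (SE 0.05) with an unadjusted p of 0.127 and an adjusted p of 0.647 in edgeR. Hk1, a hexokinase, followed at −0.11 (SE 0.07).

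Aldh1l1, the folate enzyme that serves as a pan-astrocyte marker, lies on chromosome 6 from 90486427 to 90600203. It had 54.8, 41.2, 50.9, 48.2 and 77.0 CPM in cocaine replicates 1 to 5 and 52.0, 66.6, 63.3, 47.1 and 55.1 CPM in saline replicates 1 to 5. Again cocaine replicate 5 was the highest and cocaine replicate 2 the lowest of all libraries. Its log2 fold change was −0.06 (SE 0.15). An antisense gene, Gm15756, overlaps 499 of the 4516 exon bases of Aldh1l1, and no source used here states whether the counting used strand. Of 15 folate and one-carbon genes, 14 were tested, 8 above 0 and 6 below, with 0 at an unadjusted p under 0.05 and the smallest p in Shmt2 at 0.13 (SE 0.08) and Amt at 0.16 (SE 0.11).

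Agt codes for angiotensinogen, which astrocytes make as the precursor of the brain angiotensins. It lies on chromosome 8 from 124556534 to 124569706 and was the most variable of the astrocyte genes, with the highest library 3.98 times the lowest. Levels were 79.5, 30.2, 68.8, 68.7 and 82.2 CPM in cocaine replicates 1 to 5 and 38.1, 120.1, 64.8, 44.5 and 54.9 CPM in saline replicates 1 to 5. Cocaine replicate 2 lay far below the other cocaine libraries, and saline replicate 2 was the highest of all. Its log2 fold change was 0.03 (SE 0.31), and the 95% interval from −0.63 to 0.69 was the widest of the 10. Without saline replicate 2 the log2 fold change was 0.38, with an unadjusted p of 0.152.

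Of 15 renin-angiotensin genes, 11 were tested, 5 above 0 and 6 below. Of these, 2 were lower with an unadjusted p under 0.05, beside 3.33% of all genes. Mme, which codes for neprilysin, a peptidase that cleaves angiotensin and other peptides, stood at 7.80 ± 0.899 CPM under cocaine and 10.7 ± 1.44 CPM under saline. All 5 cocaine libraries of Mme lay below every saline library, as in 0.609% of all genes, and the log2 fold change was −0.46 (SE 0.12) with an unadjusted p of 0.00224 and an adjusted p of 0.504 in edgeR. Lnpep, a membrane peptidase that binds angiotensin IV, was at −0.28 (SE 0.11).

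Fgfr3, a fibroblast growth factor receptor of astrocytes, lies on chromosome 5 from 33721674 to 33737068. It had 102, 74.7, 94.8, 85.7 and 97.3 CPM in cocaine replicates 1 to 5 and 80.4, 128, 89.4, 78.1 and 80.1 CPM in saline replicates 1 to 5. Saline replicate 2 stood apart, and the other saline libraries lay within the range of the cocaine libraries. Cocaine replicates 1, 3 and 5 lay above those other saline libraries. edgeR put the log2 fold change at −0.00236 (SE 0.14, 95% interval −0.30 to 0.29). Without saline replicate 2 it was 0.15, with an unadjusted p of 0.161. A gene model on the other strand, G630022F23Rik, overlaps 13.9% of the exon bases of Fgfr3.

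Fgfr2, the receptor that oligodendrocytes also express, was at 0.38 (SE 0.18, unadjusted p of 0.0476), with 59.6, 70.0 and 60.8 CPM in cocaine replicates 1, 4 and 5 and at most 45.8 CPM in the other libraries. These 3 cocaine libraries are also the 3 with the highest oligodendrocyte marker level. The log2 ratio of Fgfr3 to Fgfr2 differed by −0.32 (SE 0.22, exact permutation test, p = 0.206). Of 31 genes for FGF receptors, ligands and targets, 23 were tested, 12 above 0 and 11 below. Fgfr2 was the only one at an unadjusted p under 0.05, beside 5.58% of all genes higher at that threshold. The feedback inhibitor Spry2 followed at −0.16 (SE 0.08).

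**Figure D3:**
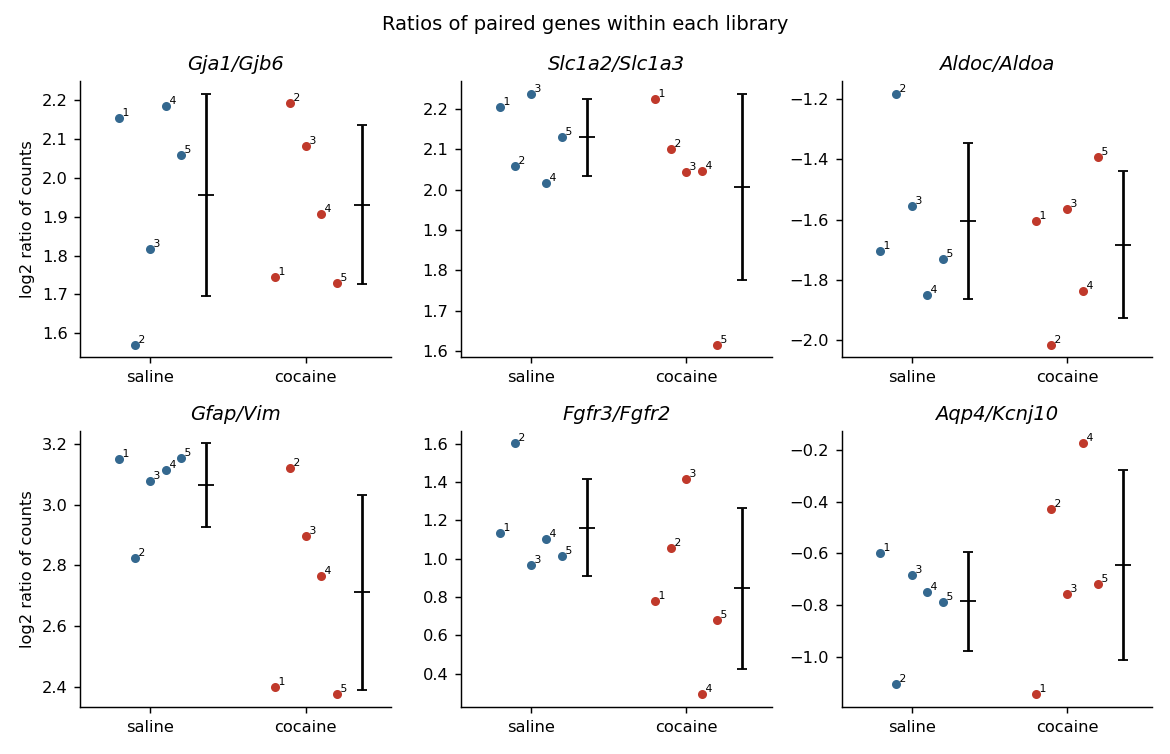
Log2 ratio of the counts of 2 genes within each library (vertical axes) for 6 pairs, in the 5 saline libraries (blue) and 5 cocaine libraries (red), numbered by replicate, with the mean and SD in black. The groups overlap in every pair, and 3 cocaine libraries lie below every saline library for Gfap to Vim, where the means differ by −0.35.

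From library to library the astrocyte genes did not vary as 1 block. Over the 45 pairs of genes, Pearson's r of log2 CPM across the 10 libraries ran from −0.36 to 0.94, with a median of 0.38. After adjustment over the 45 pairs, 10 pairs passed by Pearson's r, all positive, and 6 by Spearman's rho, in permutation tests with 100000 resamples. Aldh1l1 and Aldoc had the highest r at 0.94 (permutation p of 2e-05, adjusted p of 0.000450), with Spearman's rho of 0.92 (p of 0.00056, adjusted p of 0.0126). Agt and Fgfr3 followed each other with r of 0.92 (permutation p of 2e-05, adjusted p of 0.000450) and rho of 0.94 (p of 0.00022, adjusted p of 0.0099). Without the 2 libraries farthest from the median of the first gene these r were 0.86 and 0.87, and as deviations from the group means 0.95 and 0.92.

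The gap junction genes were correlated with each other and with some of the other genes. Gja1 and Gjb6 had r of 0.84 (permutation p of 0.00259, adjusted p of 0.0146) and rho of 0.76 (p of 0.0147, adjusted p of 0.0764). Without the 2 libraries farthest from the median of Gja1, cocaine replicates 2 and 5, r was 0.70. Aldh1l1 and Gjb6 had r of 0.94 (permutation p of 8e-05, adjusted p of 0.0012) and rho of 0.87 (p of 0.00217, adjusted p of 0.0244), and without cocaine replicates 2 and 5 r was 0.91. The other pairs past the threshold by Pearson's r joined Gja1 with Aldh1l1 and Aldoc, and Gjb6 with Aldoc, Agt and Fgfr3. Gja1 did not pass with Agt (r of 0.52, adjusted permutation p of 0.337) or Fgfr3 (r of 0.48, adjusted permutation p of 0.361).

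By Pearson's r, Aqp4 and Gfap passed the threshold with each other and with none of the other 8 genes. Their r was 0.85 (permutation p of 0.00177, adjusted p of 0.0128) with rho of 0.75 (p of 0.0182, adjusted p of 0.0764), and 0.71 without cocaine replicate 4 and saline replicate 3. The r of Gfap was 0.08 with Aldoc, 0.25 with Aldh1l1 and −0.36 with Fgfr3, none of which passed. The r of Aqp4 with Gja1 was 0.49, and 0.75 without cocaine replicate 4 and saline replicate 3. Slc1a2 passed with none of the other 9 genes, and its highest r, with Slc1a3, was 0.53 (permutation p of 0.115, adjusted p of 0.324) with rho of 0.60 (p of 0.0739, adjusted p of 0.208). That r was 0.29 without cocaine replicate 1 and saline replicate 1, and 0.27 as deviations from the group means.

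**Figure D4:**
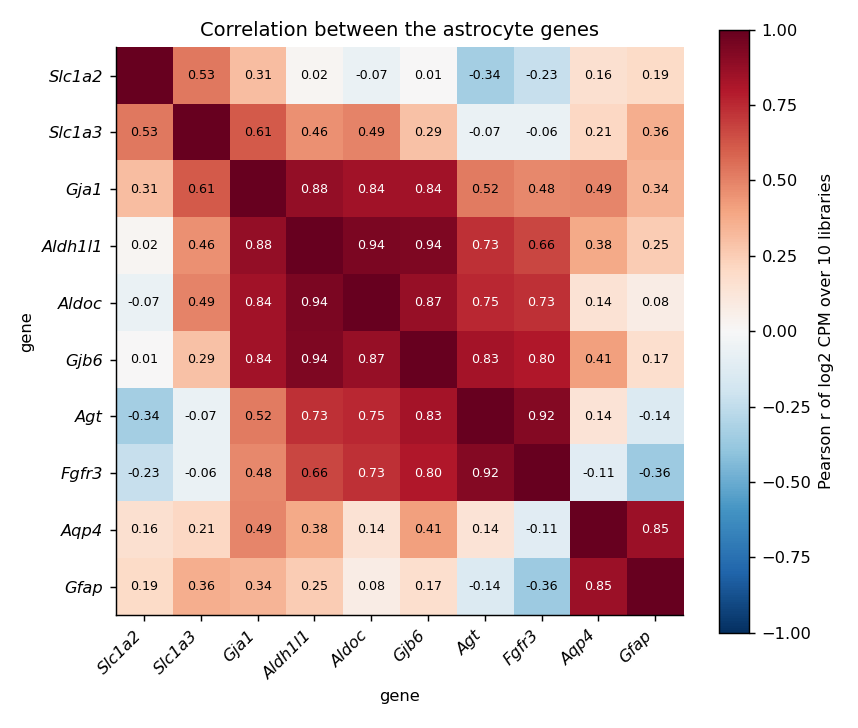
Pearson's r of log2 CPM over the 10 libraries for each pair of astrocyte genes, with red for positive and blue for negative values. Gja1, Aldh1l1, Aldoc and Gjb6 form a block with r from 0.84 to 0.94, Agt and Fgfr3 are at 0.92 and Aqp4 and Gfap at 0.85, while Slc1a2 is at 0.53 with Slc1a3 and lower with the other genes.

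The extremes of most genes fell in a few libraries. Cocaine replicate 5 was the highest library for 4 of the 10 genes and saline replicate 2 for 3, and cocaine replicate 2 was the lowest for 6. The mean of the z-scored levels of the 10 genes was 1.02 in cocaine replicate 5, 0.83 in saline replicate 2 and 0.64 in saline replicate 3. It was −1.003 in cocaine replicate 2 and −0.67 in saline replicate 4. Both ends of the scale thus lay in the cocaine group. Cocaine replicate 5 also had the highest sums of oligodendrocyte, microglia, endothelium and choroid plexus markers and the lowest sum of granule cell markers, and cocaine replicate 2 the highest sum of granule cell markers. The part of tissue composition in the covariation was not tested. Without cocaine replicate 5, 3 astrocyte genes were lower at an unadjusted p under 0.05, namely Slc1a2, Slc1a3 and Gja1 (−0.17, p of 0.0411), beside 4.96% of all genes, and the median of the 10 was −0.19.

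**Figure D5:**
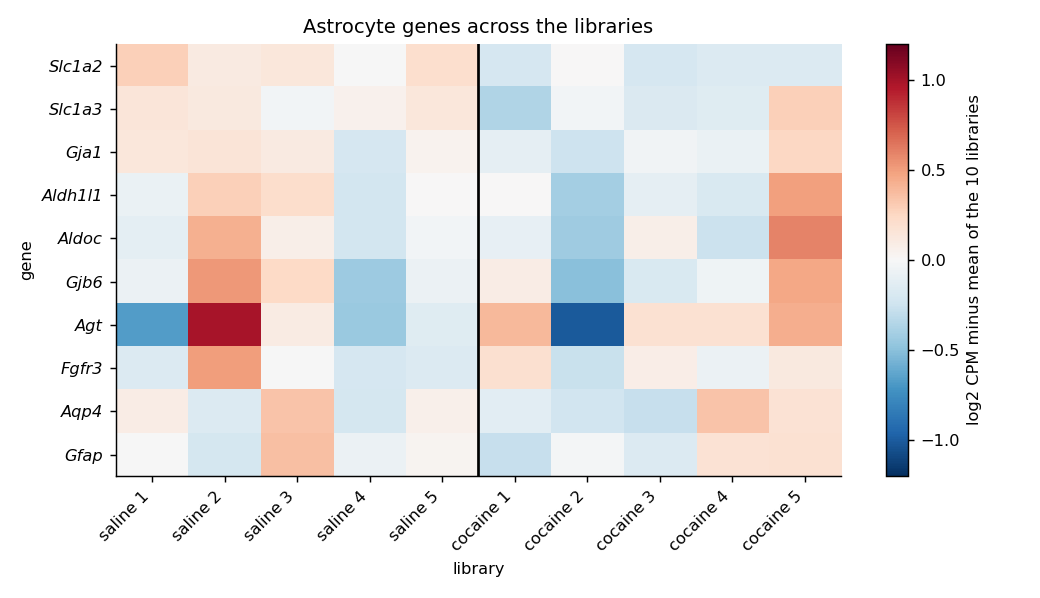
Log2 CPM of each astrocyte gene minus its mean over the 10 libraries (colour), with the libraries in columns, saline left and cocaine right of the line. Cocaine replicate 5 and saline replicate 2 are red for most genes and cocaine replicate 2 is blue, Aqp4 and Gfap are both red in saline replicate 3 and cocaine replicates 4 and 5, and Slc1a2 is blue in 4 cocaine libraries.

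Among 54 further genes known from astrocytes, all of them tested, 21 had a log2 fold change above 0 and 33 below, with a median of −0.03. Higher with an unadjusted p under 0.05 were 2 and lower 3, beside 8.91% of all genes in either direction. The smallest p were those of 2 higher genes. Vegfa, the angiogenic growth factor, stood at 59.3 ± 6.58 CPM under cocaine and 42.8 ± 6.90 CPM under saline, a log2 fold change of 0.47 (SE 0.11, unadjusted p of 0.000991). Phkg1, a subunit of the kinase that starts glycogen breakdown, stood at 23.7 ± 2.99 and 17.8 ± 1.52 CPM, a log2 fold change of 0.41 (SE 0.10, unadjusted p of 0.00139). Both had an adjusted p of 0.504 in edgeR. Vegfa is made by neurons and other cells too. The 3 lower genes were Slc4a4, described above, and, named after their values were seen, Tril, a Toll-like receptor accessory gene, at −0.23 (SE 0.09) and Dio2, which activates thyroid hormone, at −0.23 (SE 0.10).

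Of these 54 genes, 26 had r over 0.7 with the mean z-score of the 10 astrocyte genes over the 10 libraries, or 48.1%, against 5.55% of all 17080 genes tested. As a description, the 5 tested genes with the highest r were Fads1, a fatty acid desaturase, at 0.97, Glud1, glutamate dehydrogenase, at 0.97, Ak3, a mitochondrial adenylate kinase, at 0.96, Rwdd2a at 0.96 and Cpt1a, which carries fatty acids into mitochondria, at 0.95. They were picked from all genes for this likeness, so no p is given. Their log2 fold changes lay between −0.12 and −0.04. At the other end of the astrocyte list stood Nfia and Nfib, transcription factors of astrocyte development that neurons also express, at −0.54 and −0.52, chosen after their values were seen.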

How the data were processed

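RNA from the dissected granule cell layer of 10 mice, 5 per group, was sequenced as 1 directional poly(A) library per mouse. The authors deposited raw counts per Ensembl gene, whole numbers with no normalization. Per the submitters' processing notes, cutadapt, STAR, Cufflinks and HTSeq were used with genome build mm10. Not given in the sources used here are their versions and roles, the annotation release and the strand setting. Groups were taken from the labels.

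The 10 genes and the gene lists were chosen with earlier results of these data known. Symbols, positions and exon lengths came from GENCODE M21, which matched 49040 of 49315 identifiers. Counts were filtered with filterByExpr, scaled with TMM and tested with edgeR 4.0.16 (glmQLFit and glmQLFTest, R 4.3.3), cocaine against saline, with Benjamini-Hochberg adjustment over 17080 genes and a threshold of 0.05. The edgeR p-values set the difference between the groups against the spread between mice within the groups. Log2 CPM used a prior count of 2. The fit was tested on simulated data with known changes. Ratios of gene pairs were compared by exact two-sided permutation tests, and correlations by permutation tests with 100000 resamples (SciPy 1.17.1).

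Named were the 10 genes, the partners in the ratios, the 2 further genes with the smallest unadjusted p in each list of related genes, and the 5 genes most like the mean z-score, leaving out predicted gene models. Names outside this rule are marked in the text. Alternatives were other scaling, no low-count filter, DESeq2 1.42.0, limma 3.58.1 voom with sample weights, the replicate number as a block and leaving out each library. 3 more, chosen after seeing the data, left out the 3 libraries richest in choroid plexus markers or added a covariate. Proteins were not used here. The result for 1 gene of the gap junction list is not reported here.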

Additional observations from a re-analysis of the deposited data

Results flagged for a closer look

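Within each group of 5, the highest and lowest library of every astrocyte gene and gene ratio was compared with the others. In 5 of 32 groups the gap to the nearest library was more than 0.71 of the range, and chance alone marks about 1 in 20 groups. Slc1a2 in cocaine replicate 2 was at 1808 CPM, above the 1569 to 1607 CPM of the other cocaine libraries. Agt in the same library was at 30.2 CPM, below the 68.7 to 82.2 CPM of the others. Saline replicate 2 accounted for the other three. Its Fgfr3 level was 128 CPM, above 78.1 to 89.4 CPM in the other saline libraries. Its log2 ratio of Gfap to Vim was 2.82, below 3.08 to 3.15, and its log2 ratio of Fgfr3 to Fgfr2 was 1.60, above 0.97 to 1.13.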

How the results depend on the processing

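With 5 mice per group, 95% intervals as wide as that of Agt leave small differences undetectable. Slc1a2 kept its direction in all alternatives run and passed the adjusted threshold only in limma voom with sample weights (−0.30). In edgeR 0 genes were called in either direction, in DESeq2 16 higher and 1 lower, and in voom 91 higher and 4 lower. Leaving out each library gave 0 to 126 genes higher and 0 to 3 lower, with 126 and 3 without cocaine replicate 5. The number of astrocyte genes above 0 was 1, but 3 with upper-quartile factors, 2 with voom, and 0 to 6 without single libraries. At an unadjusted p under 0.05, 2 astrocyte genes were lower with voom, beside 6.65% of all genes. Without single libraries 1 to 3 passed. The 3 were lower without cocaine replicate 5, beside 4.96% of all genes. Over the fits without single libraries the median of the 10 ran from −0.19 to 0.02. That of the other astrocyte genes ran from −0.11 to 0.05.

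Values near 0 changed sign. Upper-quartile factors gave Aldoc 0.00589 and Fgfr3 0.0225, and voom gave Fgfr3 0.0160. Without single libraries the ranges were −0.14 to 0.0482 for Aqp4, −0.10 to 0.0491 for Gfap, −0.22 to 0.0252 for Aldh1l1, −0.26 to −0.09 for Slc1a3, −0.17 to −0.04 for Gja1, −0.22 to 0.0658 for Gjb6, −0.21 to 0.0909 for Aldoc, −0.11 to 0.38 for Agt and −0.0545 to 0.15 for Fgfr3. For the log2 ratios they were −0.12 to 0.0311 for Gja1 to Gjb6, −0.15 to 0.0272 for Aldoc to Aldoa, −0.18 to −0.03 for Slc1a2 to Slc1a3, −0.45 to −0.27 for Gfap to Vim, −0.46 to −0.18 for Fgfr3 to Fgfr2 and 0.02 (without cocaine replicate 4) to 0.27 (without cocaine replicate 1) for Aqp4 to Kcnj10.

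Without the 3 libraries richest in choroid plexus markers, 2 astrocyte genes were above 0 in the count of directions. With an unadjusted p under 0.05, 2 were lower in that fit, beside 3.51% of all genes. Aqp4 was at 0.0256, Gfap at 0.0610 and Agt at −0.21. With the nuclear RNA share as a covariate 6 were above 0, with Aqp4 at 0.11, Gfap at 0.13, Aldh1l1 at 0.0457, Slc1a3 at 0.10, Gja1 at 0.0464, Aldoc at 0.12 and Agt at −0.25. With the oligodendrocyte score as a covariate 0 were above 0, the median was −0.25 and Agt was at −0.42. In that fit 3 were lower at an unadjusted p under 0.05, beside 3.11% of all genes. They were Slc1a2, Aqp4 at −0.32 and Aldh1l1 at −0.34. The cause was not tested.

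Libraries of the same replicate number were not alike, with correlations of deviations from −0.215 to 0.0291. Such values cannot tell whether the mice were paired in the experiment. With the replicate block Slc1a2 was at −0.29 with an edgeR adjusted p of 0.751, 2 astrocyte genes were above 0, Fgfr3 was at 0.0181 and 0 genes were called.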
